A study of Mus musculus with 6 samples.

Results

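The 43 genes described here encode the enzymes and subunits that build the N-glycan precursor, transfer it to proteins and trim it in the endoplasmic reticulum (ER) and early secretory pathway. They were chosen by name, from dolichol synthesis to the class I α-mannosidases, with no cutoff on their values. Earlier results of these data were known when the choice was made. All 43 were among the 55536 genes in the count files, and all 43 were among the 21465 genes left after the filter on low counts. They were followed in poly(A)+ RNA of testes taken at 7 weeks from 3 KOStra8 and 3 HETStra8 mice, each sequenced as 1 library. KOStra8 mice have 1 floxed and 1 deleted Sel1L allele plus Stra8-Cre, so that the floxed allele is lost in male germ cells in which the Stra8 promoter drives Cre. HETStra8 littermates are given in the sample labels as having a floxed and a deleted allele, without Cre. The study's text also counts Stra8-Cre carriers whose other allele is wild type as HETStra8, and the genotype of each control mouse was not given in the sources used here. Sertoli cells and other somatic cells lie outside the reach of this germ cell promoter, and per the study's text SEL1L is not depleted in spermatogonia of this Cre line.

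SEL1L is the cofactor of the ubiquitin ligase HRD1 in ER-associated degradation (ERAD), which removes misfolded proteins from the ER. An N-glycan is assembled sugar by sugar on the lipid dolichol, first on the cytosolic and then on the luminal face of the ER membrane, and oligosaccharyltransferase (OST) moves it as a block onto asparagine residues of new proteins. Glucosidases and mannosidases then shorten it, and the glycan forms that result are read by folding lectins and by ERAD, so that mannose trimming by MAN1B1 and the EDEM proteins marks a glycoprotein that has failed to fold. Sperm and their precursors make many glycoproteins that need these steps.

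Sel1l itself, at chr12:91806043-91849157 of GRCm38, had 1549, 1603 and 1413 reads in the 3 HETStra8 libraries, compared with 846, 636 and 741 reads in the KOStra8 libraries. Every KOStra8 value was below every HETStra8 value, and transcript was still present in all 3 knockout testes. On the log2 scale it fell by 1.07 with a standard error (SE) of 0.104 (edgeR's quasi-likelihood test, adjusted p = 0.00061), and the adjusted p from edgeR was 0.0132 without KOStra8 mouse 2 and 0.0120 without KOStra8 mouse 3. Library totals were between 28875108 and 36526695 counts, so that even the least counted member, Man1a, had 30 counts in its lowest library. Levels are given below as CPM, in which TMM factors put the libraries on 1 scale and correct for their composition. Values per mouse are in the order of the mouse numbers 1 to 3, and comparisons between genes use CPM per kilobase of merged exons.

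Summed CPM of 8 elongating spermatid markers, such as the protamines Prm1 and Prm2, was 15290 to 15440 in HETStra8 and 13850 to 15490 in KOStra8 testes, and 10 spermatocyte markers summed to 3646 to 3949 and 3740 to 3932. The ranges of both sums overlapped between the genotypes. So did those of 8 round spermatid markers (1383 to 1532 and 1393 to 1462) and 8 spermatogonia markers (98.93 to 108 and 94.44 to 104.1). By gene, 7 of 8 elongating spermatid, 4 of 10 spermatocyte, 5 of 8 round spermatid and 5 of 8 spermatogonia markers were lower. Of these, 1 elongating and 1 round spermatid marker had an unadjusted p below 0.05. Log2 differences of the spermatocyte markers were −0.11 to 0.97. Of 8 Sertoli cell markers, all 8 had a negative fold change, as had 51.5% of all genes tested. Of the 8, 5 had an unadjusted p below 0.05, a level at which 5.12% of all genes were lower. The summed CPM of the 8 was 1042 to 1247 in HETStra8 against 863.7 to 987.7 in KOStra8. Their median log2 difference was −0.28. It was −0.14 once counts were corrected for GC content and length as described further on. Then 7 were lower, 3 of them at that p, as were 3.23% of all genes. The 8 Leydig cell markers were likewise all lower, with sums of 553.1 to 835.1 and 464 to 599. So were all 6 peritubular myoid cell markers, 6 of 7 macrophage markers (median −0.35), 4 of 6 endothelial markers and the 4 tested blood markers. After the correction all 8 Leydig markers stayed lower (median −0.26), but the myoid markers were 3 higher and 3 lower. The macrophage, endothelial and blood counts were unchanged, with medians of −0.20, −0.15 and −0.13. HETStra8 mouse 1 had the highest Leydig (835.1) and myoid (440.1) sums. The myoid sums of the other controls, 378 and 361.6, lay within the KOStra8 range of 350.1 to 387.4. Epididymis markers reached a summed CPM of 8.62 in HETStra8 mouse 1 but stayed at or below 1.04 in the other 5 testes. The part of these cell type differences in the members' values was not tested, and in whole testis fewer cells of a type and less RNA per cell cannot be told apart.

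Promoter sequences, taken from RefSeq (GRCm38.p6) for 37 of the 43 members, are shown for the few that hold a known element of the unfolded protein response, the program by which cells answer misfolded protein in the ER. Alg2, Alg11, Dpagt1, Man1a2, Ostc and Tusc3 had no entry. Windows from 250 bases before to 50 bases after the start of transcription were searched on both strands. The first element was the ER stress response element (ERSE), which is CCAAT, any 9 bases, then CCACG. The second was ERSE-II, which is ATTGG, any 1 base, then CCACG. The core of the unfolded protein response element (UPRE), TGACGTG, and the cAMP response element (CRE), which is TGACG followed by TCA, were searched as well. They begin alike, and no window position can match both on the same strand. ERSE stood in 1 member, Alg12, and in 39 of all 32851 promoter windows (0.119%). ERSE-II stood in 1 member, Krtcap2, and in 12 windows (0.0365%). The UPRE core stood in Dpm2, Dhdds and Mogs and in 661 windows (2.01%), and CRE stood in no member window and in 588 windows in all (1.79%).

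In the sequences below, each read 5′ to 3′ on the strand of its gene, capitals mark the match. The Alg12 window, chr15:88819319-88819568 on the minus strand, ends at the start of transcription and holds its ERSE 220 to 202 bases upstream. The 30-base Krtcap2 window, chr3:89246481-89246510 on the plus strand, holds ERSE-II 17 to 27 bases downstream of the start. The 60-base windows of Dpm2 (chr2:32570780-32570839, plus strand), Dhdds (chr4:134000883-134000942, minus strand) and Mogs (chr6:83115446-83115505, plus strand) lie around the UPRE core, which in Dpm2 is on the opposite strand.
Alg12: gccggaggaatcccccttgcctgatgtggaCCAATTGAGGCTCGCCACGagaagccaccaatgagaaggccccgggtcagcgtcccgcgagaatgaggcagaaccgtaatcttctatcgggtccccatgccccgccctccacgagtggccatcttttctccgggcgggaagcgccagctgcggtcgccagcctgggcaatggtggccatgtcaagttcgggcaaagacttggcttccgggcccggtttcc
Krtcap2: gggacacggATTGGACCACGgacggggcgt
Dpm2: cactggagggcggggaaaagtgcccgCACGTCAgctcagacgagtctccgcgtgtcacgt
Dhdds: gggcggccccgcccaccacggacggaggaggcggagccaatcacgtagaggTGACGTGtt
Mogs: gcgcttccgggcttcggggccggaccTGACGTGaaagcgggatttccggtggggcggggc
These matches are letters in a window and were not measured as binding sites. The log2 fold changes of KOStra8 against HETStra8 for the 5 genes were −0.12 for Alg12, −0.42 for Krtcap2, −0.18 for Dpm2, −0.08 for Dhdds and −0.21 for Mogs, and none of them passed an adjusted p of 0.05. Their transcripts have a GC content of 52.4% to 58.9%, and all 25 members above 49.17% GC were lower. After the correction for GC content and length described further on, the values were −0.02, −0.30, −0.06, 0.01 and −0.06 in the same order.

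Per kilobase of merged exons, the members spanned more than 3 orders of magnitude in level, and the order was led by OST. The span was narrower with other lengths, at 0.309 to 188 CPM per kilobase with principal transcripts and 0.566 to 279.3 with mean transcript length. Stt3b, a catalytic subunit of OST, had the highest level of the 43 at 188 CPM per kilobase, which put it above 98.98% of the genes tested. With the mean length of a gene's annotated transcripts in place of merged exons, Rpn2 came first at 279.3 and Stt3b next at 187.7 CPM per kilobase. With merged exons, Stt3b was followed by 3 subunits that both forms of the enzyme share, Rpn2 at 77.7, Rpn1 at 52.6 and Ddost at 48.1 CPM per kilobase. The other shared subunits, Tmem258, Dad1 and Ost4, were close to each other at 23.3, 21.5 and 20.6 CPM per kilobase, and their ranges over the 6 mice overlapped. This holds for merged exons only, since with principal transcripts Tmem258 was at 61.9, Dad1 at 24.1 and Ost4 at 22.9 CPM per kilobase. Outside OST the highest levels per kilobase of merged exons were those of the mannosidases Man1b1 (21.4) and Man1a2 (16.2) and of Ganab (16.7), the catalytic subunit of glucosidase II, again in CPM per kilobase. At the other end stood Man1c1 at 0.499, Alg6, which adds the first glucose to the precursor, at 0.326, and Man1a at 0.164 CPM per kilobase. The Ost4 value has an additional limit, since 53.2% of its exon bases are also exon of Agbl5 on the opposite strand and the strand setting of the counting was not given in the sources used here.

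**Figure D1:**
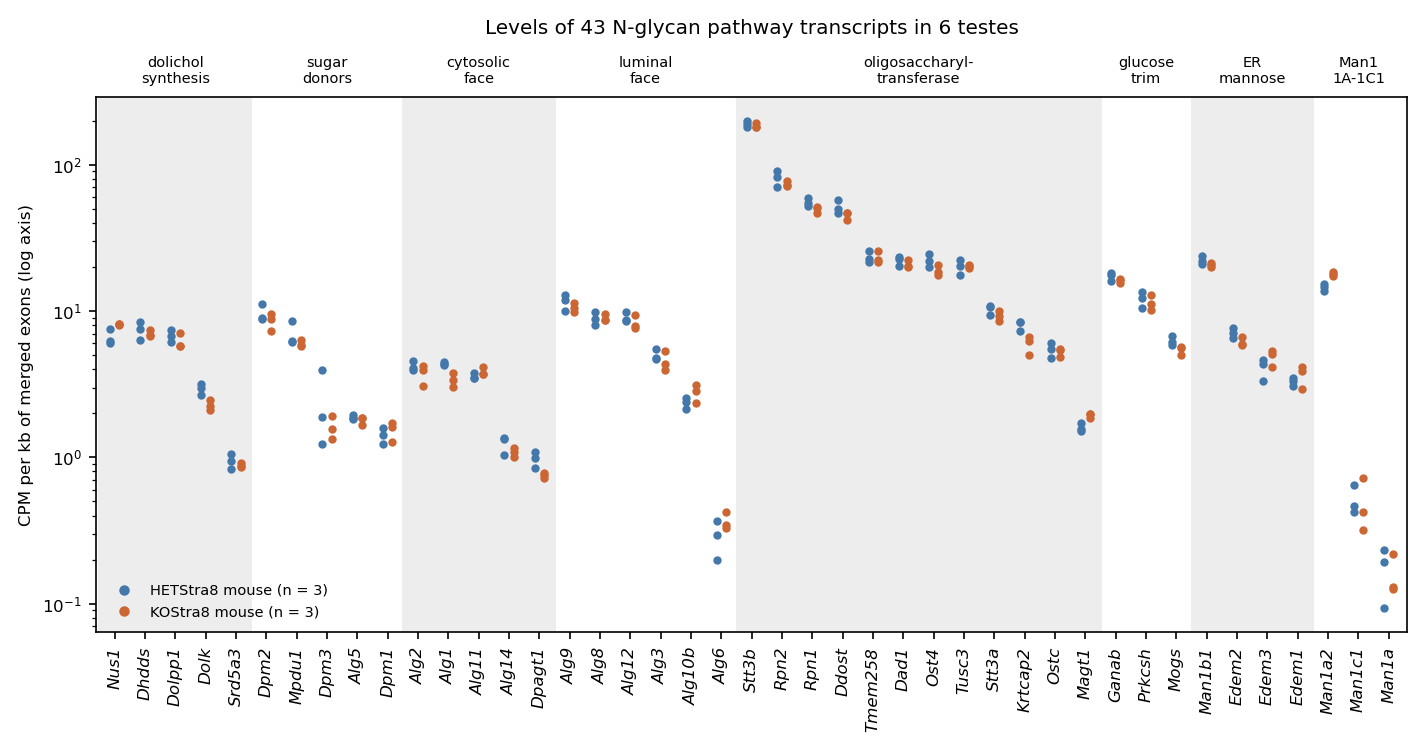
Level of each of the 43 members in CPM per kilobase of merged exons (logarithmic axis), by role, with 1 point per mouse (HETStra8 blue, KOStra8 orange, 3 each). On this length definition Stt3b is highest at 188 and Man1a lowest at 0.164 CPM per kilobase on average (with mean transcript length Rpn2 is highest), and the points of the 2 genotypes lie close together for most genes.

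No member changed between the genotypes by the study's cutoffs. None of the 43 passed a fold of 2 with an adjusted p below 0.01 in edgeR's quasi-likelihood test, where 0.00932% of all genes did, and none passed an adjusted p of 0.05 at any fold, where 0.0233% did. With an unadjusted p below 0.05, 2 members were higher, Nus1 and Man1a2, in a table in which 7.13% of all genes were higher at that level, and 3 were lower, Dolk, Alg1 and Krtcap2, against 5.12% of all genes. In both directions together these were 11.6% of the members and 12.3% of all genes. When HETStra8 mouse 3 was left out, 12 members (27.9%) and 19.8% of all genes reached that level. When KOStra8 mouse 1 was left out, 3 members (6.98%) and 9.31% of all genes did, and when KOStra8 mouse 3 was, 3 members and 6.56% of all genes. DESeq2 gave 1 member with an adjusted p below 0.05, Man1a2 (2.33% of the members, against 1.68% of all genes), and edgeR without HETStra8 mouse 3 gave 2, Nus1 and Man1a2 (4.65%, against 4.9% of all genes). At an unadjusted p below 0.05 without HETStra8 mouse 3, the members' share was above that of all genes. It was also above that of all genes without KOStra8 mouse 2 (7 members, 16.3%, against 10.7%). The same held without a filter on low counts (7 members, 16.3%, against 10.3%). The other shares given here were closer to those of all genes. The SE of a member's log2 fold change was 0.0646 to 0.391, with a median of 0.121.

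Small differences to the lower side were more frequent. Of the 43 members, 32 (74.4%) had a negative log2 fold change, compared with 51.5% of all genes tested, and the median was −0.11, compared with −0.01 over all genes. Without HETStra8 mouse 1, the library with epididymis transcripts, 27 members were lower and the median was −0.05. All 3 KOStra8 values lay above all 3 HETStra8 values for Nus1, Magt1 and Man1a2. These were 3 of 43 members, a smaller share than the 9.33% of all genes. All 3 lay below them for Dolk, Dpagt1, Alg1, Rpn1, Ddost, Krtcap2 and Mogs. These were 7 of 43 members, a larger share than the 8.43% of all genes. The groups overlapped for the other 33. The relation of the sign to the GC content of the transcripts is described further on.

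**Figure D2:**
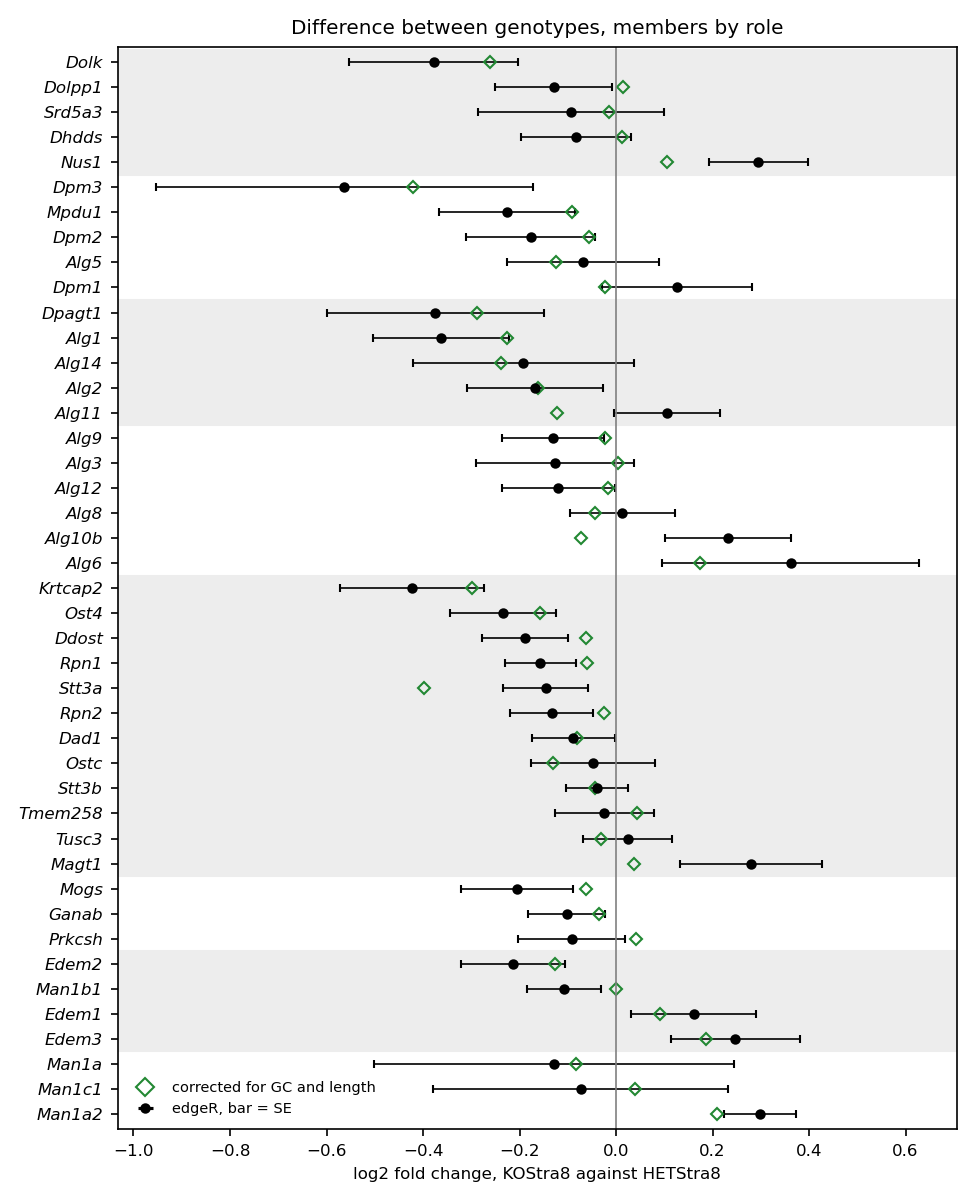
Log2 fold change of KOStra8 against HETStra8 for each member, grouped by role (black points with SE bars, edgeR), and the value after correction for GC content and transcript length (green diamonds). The range runs from −0.56 for Dpm3 to 0.36 for Alg6, and 32 of the 43 points lie below 0 before the correction and 31 after it.

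Among the genes for dolichol supply, Nus1 and Dolk had an unadjusted p below 0.05, in opposite directions. Nus1 (chr10:52417547-52440183) encodes the Nogo-B receptor, which together with the prenyltransferase DHDDS makes the polyprenol chain of dolichol. Its CPM was 29.33, 30.52 and 36.82 in HETStra8 and 39.996, 39.69 and 38.9 in KOStra8 mice. The knockout values were tightly grouped and all above the controls, of which mouse 3 came closest. The log2 difference was 0.29 (SE 0.103, adjusted p = 0.286 in edgeR's quasi-likelihood test), and the adjusted p from edgeR was 0.0209 when HETStra8 mouse 3 was left out and 0.895 at the highest among the alternatives. Its partner Dhdds had 24.1 to 31.8 CPM in HETStra8 and 25.6 to 28.0 in KOStra8, with full overlap and a log2 difference of −0.08 (SE 0.114).

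Dolk (chr2:30284231-30286334), the kinase that makes dolichyl phosphate, had 6.27, 6.69 and 5.64 CPM in HETStra8 and 4.72, 4.42 and 5.15 CPM in KOStra8 mice. The groups did not overlap, with HETStra8 mouse 3 and KOStra8 mouse 3 nearest to each other, and Dolk had a log2 difference of −0.38 (SE 0.175, edgeR adjusted p = 0.404). Dolpp1, which recycles dolichyl pyrophosphate, and Srd5a3, a reductase needed to form dolichol, had overlapping groups and log2 differences of −0.13 and −0.09.

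Of the genes for dolichol-linked sugar donors, none had an unadjusted p below 0.05. DPM1 is the catalytic subunit of dolichol phosphate mannose synthase and DPM2 and DPM3 hold it in the membrane. Dpm3 (chr3:89259358-89267079) had the largest log2 difference of all members, −0.56, but with an SE of 0.391. Its CPM was 3.66, 1.13 and 1.74 in HETStra8 and 1.23, 1.76 and 1.42 in KOStra8 mice. HETStra8 mouse 1 alone was high, while of the other controls mouse 3 lay within the range of the knockouts and mouse 2 below it. Without that mouse the log2 difference was 0.03. Dpm1 (log2 difference 0.13), Dpm2 (−0.18), Alg5, the dolichol phosphate glucose synthase (−0.07), and Mpdu1, which is needed to use both donors (−0.23), had overlapping groups. For Dpm1, 11.8% of the 50-base sequences of its transcripts are shared with another annotated gene, Gm20716 for the most part.

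On the cytosolic face, where the chain is begun, the largest differences were those of Dpagt1 and Alg1, and 4 of the 5 genes were lower. Alg1 (chr16:5233621-5244912), which adds the first mannose, had 11.7, 11.4 and 12.003 CPM in HETStra8 and 9.05, 10.2 and 8.08 CPM in KOStra8 mice. All knockouts were below all controls, and the controls differed little among themselves. The log2 difference was −0.36 (SE 0.142, edgeR adjusted p = 0.337), and 17.6% of the exon bases of Alg1 are also exon of Eef2kmt on the opposite strand. Dpagt1 (chr9:44326019-44333900), which attaches the first sugar to dolichyl phosphate, had 3.37, 3.74 and 2.88 CPM in HETStra8 and 2.46, 2.59 and 2.66 CPM in KOStra8 mice. These groups did not overlap either, but HETStra8 mouse 3 was close to the knockouts, and the log2 difference was −0.37 (SE 0.225, edgeR adjusted p = 0.518). Alg14, a subunit of the enzyme that adds the next sugar, Alg2 and Alg11, which add further mannoses, had overlapping groups and log2 differences of −0.19, −0.17 and 0.10.

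On the luminal face the groups of all 6 genes overlapped. The mannosyltransferase genes Alg3, Alg9 and Alg12 had log2 differences of −0.13, −0.13 and −0.12. The glucosyltransferase genes Alg6, Alg8 and Alg10b had positive ones of 0.36, 0.01 and 0.23, of which that of Alg6 had an SE of 0.266 at 1.69 to 3.64 CPM. After the correction for GC content and length described further on, Alg8 and Alg10b were at −0.04 and −0.07 and Alg6 at 0.17.

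**Figure D3:**
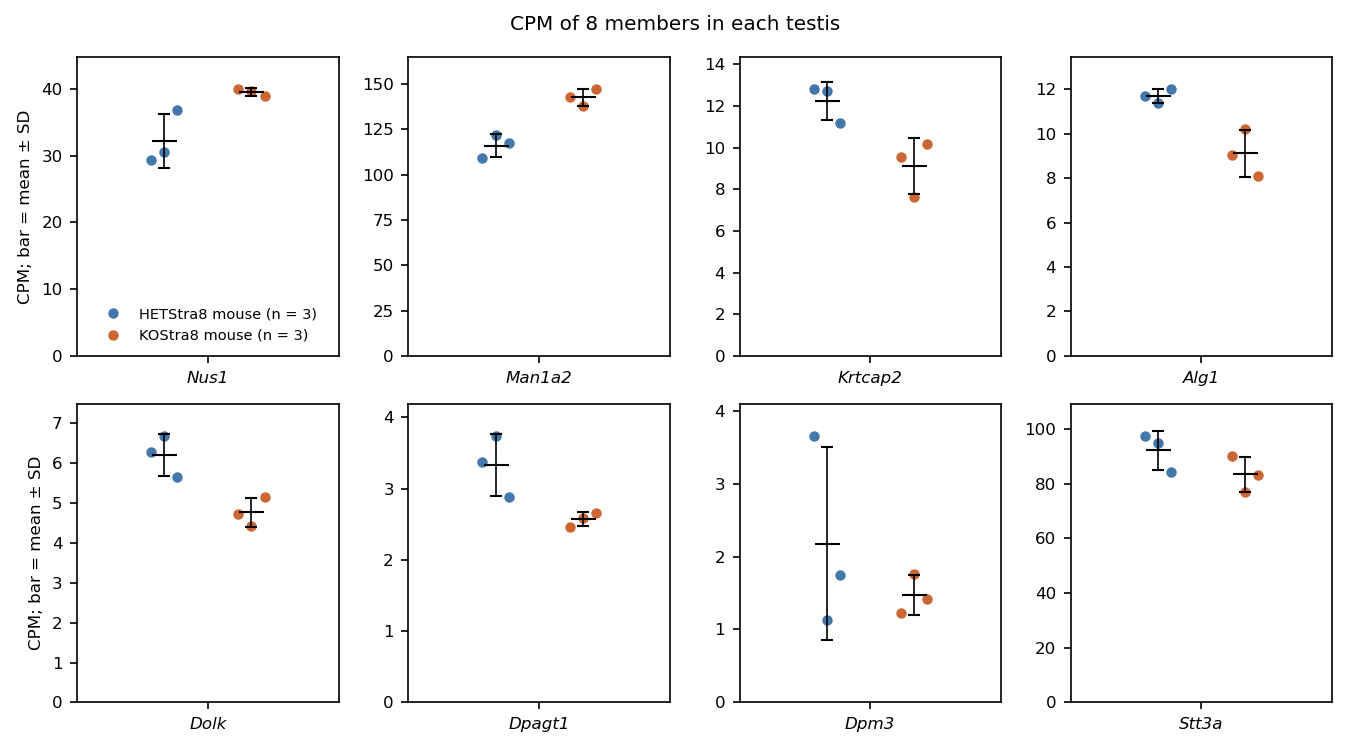
CPM in each testis of 8 members, the 7 with the smallest p-values or largest differences and Stt3a (points, 1 per mouse; bars, mean ± SD; HETStra8 blue and KOStra8 orange, n = 3 each). Nus1 and Man1a2 were above the controls in every KOStra8 mouse, Krtcap2, Alg1, Dolk and Dpagt1 below them, and the Dpm3 mean of HETStra8 rests on mouse 1 at 3.66 CPM.

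Of the 12 OST genes, 10 had a lower mean estimate in KOStra8 testes and 2 a higher one, and 1 of the 12 had an unadjusted p below 0.05. Their CPM summed to 1735 to 2000 in HETStra8 and 1738 to 1773 in KOStra8 mice, so that the knockouts lay within the range of the controls. The exception by p was Krtcap2 (chr3:89245966-89249906), a subunit that belongs with OSTC to the STT3A form of the enzyme. Krtcap2 had 12.8, 12.7 and 11.2 CPM in HETStra8 and 9.56, 7.63 and 10.2 CPM in KOStra8 mice. Every knockout was below every control, and the log2 difference was −0.42 (SE 0.149, adjusted p = 0.292 in edgeR's quasi-likelihood test). Of its exon bases, 15.7% are also exon of Trim46 on the opposite strand. Ostc, its partner, had a log2 difference of −0.05 (SE 0.129).

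Rpn1 and Ddost, shared structural subunits, were lower without overlap. Rpn1 had 266.5, 247.7 and 236.3 CPM in HETStra8 and 227.7, 232.8 and 212.6 CPM in KOStra8 mice, a log2 difference of −0.16 (SE 0.0734). Ddost had 120.9, 106.2 and 98.9 CPM against 98.7, 98.7 and 88.7 CPM, a log2 difference of −0.19 (SE 0.0891). For Ddost the lowest control and the highest knockout nearly touched. After the correction for GC content and length the log2 differences were −0.06 for Rpn1 and −0.06 for Ddost. The remaining shared subunits Rpn2, Dad1, Ost4 and Tmem258 had overlapping groups and log2 differences between −0.23 and −0.02.

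OST exists in a form with STT3A, which glycosylates proteins as they enter the ER, and a form with STT3B, which acts on sites that were missed and works with the oxidoreductase TUSC3 or MAGT1. In these testes Stt3b was the more abundant transcript of the catalytic pair and Tusc3 that of the oxidoreductase pair. Stt3b had 836.5, 802.9 and 769.7 CPM in HETStra8 and 761.3, 764.7 and 818.2 CPM in KOStra8 mice, whereas Stt3a had 97.64, 94.89 and 84.23 against 90.01, 76.97 and 83.16 CPM. Per kilobase of merged exons, Stt3b was 17.9 to 21.1 times Stt3a over the 6 mice. The ratio depends on the length assumed, being 11.8 to 13.8 with the principal transcript of each gene and 2.86 to 3.36 with the mean length of all its annotated transcripts, and it was above 1 in every mouse with each. Tusc3 had 76.2, 69.2 and 60.8 CPM in HETStra8 and 71.3, 68.1 and 70.2 CPM in KOStra8 mice, with overlap. Per kilobase of merged exons Tusc3 was 10.2 to 14.2 times Magt1, and 22.2 to 30.9 times with the principal transcripts. Magt1 had 7.29, 7.07 and 8.07 CPM in HETStra8 and 9.28, 8.74 and 9.20 CPM in KOStra8 mice, higher in every knockout, with a log2 difference of 0.28 (SE 0.147, edgeR adjusted p = 0.453).

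The balance between paralogs was compared by the log2 ratio of counts within each mouse, which does not depend on library scaling. The mean difference of KOStra8 from HETStra8 was −0.11 for Stt3a to Stt3b and 0.25 for Magt1 to Tusc3 (exact permutation test over the mice, two-sided, p = 0.4 for each). After the correction for GC content and length these differences were −0.34 and 0.06, and leaving out a mouse gave −0.18 to −0.07 and 0.16 to 0.39, with the extremes for Magt1 to Tusc3 without HETStra8 mouse 1 and mouse 3 and for Stt3a to Stt3b without KOStra8 mouse 1 and mouse 2. With 3 mice against 3 the exact test cannot give a p below 0.1, and all 5 ratios tested had an adjusted p of 0.5.

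**Figure D4:**
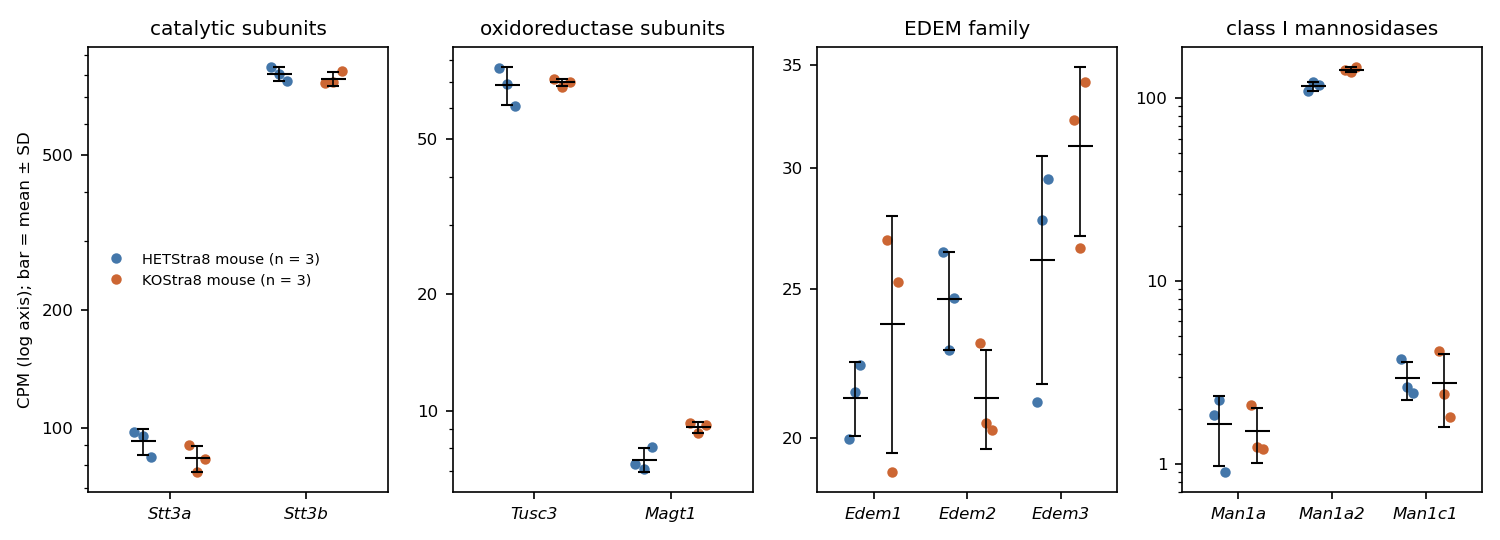
CPM per mouse of paralogous members (logarithmic axes, a different range in each panel; points, 1 per mouse; bars, mean ± SD; HETStra8 blue and KOStra8 orange, n = 3 each). Stt3b at 761.3 to 836.5 CPM stands far above Stt3a, Tusc3 above Magt1 and Man1a2 above Man1a and Man1c1, while the 3 EDEM genes lie between 19.0 and 34.1 CPM.

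The 3 genes of glucose trimming were each slightly lower in KOStra8 testes. Mogs, the glucosidase that removes the outermost glucose, had 17.0, 17.7 and 19.5 CPM in HETStra8 and 16.4, 16.2 and 14.4 CPM in KOStra8 mice. Every knockout was below every control, with HETStra8 mouse 1 and KOStra8 mouse 1 nearest, and Mogs had a log2 difference of −0.21 (SE 0.116). Ganab and Prkcsh, the catalytic and regulatory subunits of glucosidase II, had overlapping groups and log2 differences of −0.10 and −0.09, and that of Prkcsh was 0.04 after the correction for GC content and length.

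In ER mannose trimming, which prepares glycoproteins for SEL1L-HRD1, no gene was separated between the groups. Man1b1 had 113.5 to 127.9 CPM in HETStra8 and 108.3 to 114.2 in KOStra8 mice, a log2 difference of −0.11 (SE 0.0764). Edem1 had 19.98, 21.4 and 22.3 CPM in HETStra8 and 26.9, 19.0 and 25.3 CPM in KOStra8 mice, Edem2 had 26.4, 22.8 and 24.7 against 23.1, 20.5 and 20.2 CPM, and Edem3 had 21.1, 27.7 and 29.5 against 32.2, 26.6 and 34.1 CPM. The Edem1 and Edem3 differences were positive, 0.16 (SE 0.13) and 0.25 (SE 0.134) on the log2 scale, and that of Edem2 was negative, −0.21 (SE 0.108), with overlap for each gene. The log2 ratio of Edem3 to Edem2 was higher by 0.47 in KOStra8, with every knockout above every control, and the exact permutation test gave its smallest possible p of 0.1. The difference was 0.27 without HETStra8 mouse 1 (exact permutation p = 0.2) and 0.32 after the GC content and length correction. For Edem1 to Edem2 the difference was 0.36 (exact permutation p = 0.2), and 0.20 after the correction.

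Man1a2 had the smallest p-value of all members. Its product, like those of Man1a and Man1c1, is a class I α-mannosidase that removes mannoses after the ER glucosidases have acted. Man1a2 (chr3:100562208-100685503) had 109.0, 121.5 and 117.2 CPM in HETStra8 and 142.5, 137.9 and 147.1 CPM in KOStra8 mice. The groups were well apart, with a narrow spread within each. The log2 difference was 0.30 (SE 0.0751), with an unadjusted p of 0.00137 and an adjusted p of 0.162 in edgeR's quasi-likelihood test. The adjusted p was 0.0296 in DESeq2 and 0.0273 in edgeR without HETStra8 mouse 3, and 0.685 without KOStra8 mouse 3, and over all alternatives it was 0.0273 to 0.761. Among the 3 genes Man1a2 accounted for nearly all of the counts, since Man1c1 had 1.81 to 4.12 CPM over the 6 mice. Man1a had 1.85, 2.23 and 0.90 CPM in HETStra8 and 2.09, 1.24 and 1.21 CPM in KOStra8 mice, and both genes had overlapping groups. The Man1a to Man1a2 log2 ratio differed by −0.38 (exact permutation p = 0.5), with −0.78 without HETStra8 mouse 3 and −0.15 without HETStra8 mouse 2.

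Among the members, as among all genes, the log2 difference was lower where the GC content of the transcripts was higher. Over the 43 members, GC content and log2 fold change had a Spearman rho of −0.66, and over all genes tested the value was −0.47. Split at 49.17% GC, the median of all genes tested, 25 of the 25 members above it were lower in KOStra8, where 71.3% of all genes above it were, and 7 of the 18 members at or below it (38.9%) were lower, where 31.8% of all genes were. The 11 members that were higher had a GC content of 41.1% to 46.9%. These genes share their libraries, so the correlations are descriptions.

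**Figure D5:**
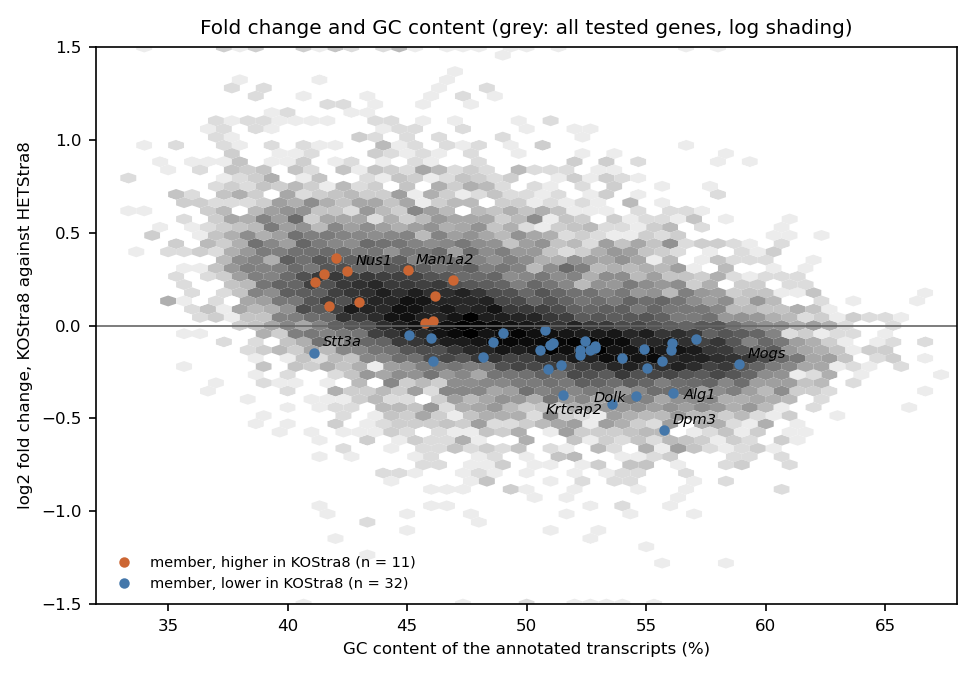
GC content of the annotated transcripts (horizontal, %) against log2 fold change of KOStra8 against HETStra8 (vertical) for all tested genes (grey hexagons, darker for more genes on a log scale, values beyond 1.5 drawn at the edge) and the 43 members (orange, higher; blue, lower). Members and all genes slope the same way, with the 11 higher members between 41.1% and 46.9% GC, and Stt3a, at 41.1%, is among the lower members with the least GC.

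After counts were corrected for GC content and transcript length by a curve fitted in each library, the members' median log2 difference was −0.04 and 31 of 43 (72.1%) were lower, compared with 50.6% of all genes. The rho with GC content was then −0.08. With an unadjusted p below 0.05, 1 member was higher (Man1a2, against 3.75% of all genes) and 1 was lower (Stt3a, against 3.23% of all genes), and none had an adjusted p below 0.05. Man1a2 kept a positive difference of 0.21, while Nus1 was at 0.11, Magt1 at 0.04, Dolk at −0.26, Alg1 at −0.23 and Krtcap2 at −0.30. Stt3a moved the other way, from −0.15 (SE 0.0882) to −0.40 after the correction (edgeR adjusted p = 0.480). Using GC content and length of the principal transcript only, Stt3a was at −0.41 and Man1a2 at 0.11. Only Stt3a kept an unadjusted p below 0.05 (2.33% of the members, against 7.38% of all genes).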

How the data were processed

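The authors deposited, for each testis, a table of raw counts, the whole number of reads on each of 55536 Ensembl genes, with no normalization. The submitters' processing notes name FastQC, Trimmomatic, STAR 2.7.1a, Picard 2.20.4, StringTie 2.0.4, featureCounts 1.6.0, HTSeq and ChIPseeker, and the mm10 (GRCm38) genome, without a role for each. The strand setting of the counting is not given in the sources used here. Symbols, positions, GC content and lengths came from GENCODE mouse release M21 (GRCm38).

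The whole table was fitted with edgeR 4.0.16 under R 4.3.3, after filterByExpr at its defaults and TMM scaling, by robust quasi-likelihood with no term but genotype, followed by a two-sided F test and Benjamini-Hochberg adjustment over all 21465 genes tested. The cutoffs were a fold of 2 and an adjusted p below 0.01, with adjusted and unadjusted p below 0.05 as looser ones. A gene was named with full statistics if it was Sel1l, a member with an unadjusted p below 0.05, one of the 5 members with the largest differences, or in a paralog ratio, and other members are given by levels, ranges and counts. Log2 differences of the remaining members, values per mouse or SE of Ddost, Rpn1, Mogs, Dhdds, Ostc, Man1b1 and Alg6, and the genes named in the closing section that are no members were added to this rule after their values were seen. Log2 ratios of paralog counts, with 5 pairs, were compared by an exact two-sided permutation test over mice. The alternatives were DESeq2 1.42.0, limma-voom (limma 3.58.1), DESeq2 size factors or library totals, other filters (none, or at least 10 counts in every sample), a replicate block, offsets from a loess curve of GC content and transcript length per library (span 0.3, genes above a log2 CPM of 2), and leaving out each mouse. Correction by the principal transcript and the split of genes at the median GC content were added after the data were seen. The scripts were tested on simulated data. The members and lists were chosen with earlier results of these data known.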

Additional observations from a re-analysis of the deposited data

How the results depend on the processing

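No member passed a fold of 2 with an adjusted p below 0.01 under any alternative, and the members' median log2 difference stayed negative under each. At an adjusted p below 0.05, 1 member (Man1a2) passed without a filter on low counts and 1 (again Man1a2) with DESeq2, and leaving out a mouse gave 0 to 2, with Nus1 and Man1a2 passing without HETStra8 mouse 3. Over all genes these settings called 660, 360 and 1082 genes at that level, against 5. With an unadjusted p below 0.05 there were 5 members in the main fit (11.6%, against 12.3% of all genes). After the GC content and length correction there were 2 (4.65%, against 6.98% of all genes). With the replicate block and that correction there were also 2 (4.65%, against 6.73%). The principal transcript's GC content and length gave 1 (2.33%, against 7.38%), and leaving out a mouse gave 3 to 12. The number was 12 without HETStra8 mouse 3 (27.9%, against 19.8% of all genes). It was 3 (6.98%) without KOStra8 mouse 1 or KOStra8 mouse 3, against 9.31% and 6.56% of all genes. For the paralog ratios the replicate block leaves the difference unchanged by construction, and the other fits and filters were not run. After the GC content and length correction and with each mouse left out, the differences kept their direction, though not their size. The cause of these shifts was not tested. Over all genes, calls by the study's cutoffs (1 higher and 1 lower in the main fit here) were 22 and 17 without the filter, 12 and 2 in DESeq2, and 42 and 2 without HETStra8 mouse 3. The study's text reports more genes in each direction at these cutoffs than any setting here gave. It does not name the test used. With the replicate block, 5 members had an unadjusted p below 0.05 (11.6%, against 12.3% of all genes) and the median was −0.11. Over all genes 163 were then higher and 12 lower at an adjusted p of 0.05, against 4 and 1. Same-numbered mice had correlations of −0.0658, −0.0668 and 0.128 between their deviations, so the numbers were not taken to pair them. Dpm3 ranged from −0.88 to 0.033 when a mouse was left out, and reversed without HETStra8 mouse 1. Sel1l stayed negative but had an adjusted p above 0.01 without KOStra8 mouse 2 or KOStra8 mouse 3. Levels per kilobase moved by more than the spread between mice for 39 of 43 members with mean transcript length and for 29 with principal transcripts. The depth of the least counted members, 30 reads at the lowest, and 3 mice per group limit what could be seen: the SE of 0.121 at the median leaves small differences unresolved.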

Other observations

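Genes next to the N-glycan pathway were given by lists of their own. Of 11 genes for sugar nucleotide supply, 4 were higher and 7 lower in KOStra8 testes, with a median log2 difference of −0.04, and only Gmppb, a subunit of the enzyme that makes GDP-mannose, had an unadjusted p below 0.05, a level at which 5.12% of all genes were lower. Gmppb had 17.2, 19.7 and 15.8 CPM in HETStra8 and 15.2, 14.5 and 14.3 CPM in KOStra8 mice, a log2 difference of −0.26 (SE 0.121), with every knockout below every control, as for 8.43% of all genes. After the GC content and length correction none of the 11 had an unadjusted p below 0.05.

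Of 12 genes for glycoprotein lectins, glucosyltransferases and deglycosylation, 6 were higher and 6 lower, with a median of 0.02 and none with an unadjusted p below 0.05. They include the testis-specific chaperones Clgn, at 784.4 to 921.2 CPM in HETStra8 and 917.9 to 970.2 in KOStra8 mice, and Calr3, at 103.2 to 124.0 and 103.8 to 115.6 CPM. Their groups overlapped. Of 11 genes for Golgi N-glycan processing, 5 were higher and 6 lower, with a median of −0.04. Mgat4a, Mgat4d and Fut8 were higher with an unadjusted p below 0.05 and without overlap between the groups, by 0.28, 0.22 and 0.21 on the log2 scale, where 7.13% of all genes were higher at that level and 9.33% had every knockout above every control. None of the 11 had an unadjusted p below 0.05 after the correction. Mgat4a was then at 0.14 and Fut8 at 0.03, and Mgat4d changed sign to −0.16. The largest difference of the list was that of Mgat3, −0.54 (SE 0.345), at 1.07 to 1.56 CPM in HETStra8 and 0.76 to 1.03 CPM in KOStra8 mice, without overlap. Man2a2 had 177.04, 108.65 and 106.98 CPM in HETStra8 and 167.1, 151.6 and 161.5 CPM in KOStra8 mice, a log2 difference of 0.29 (SE 0.206). HETStra8 mouse 1, the library with epididymis transcripts, stood apart from the other controls. Without it the log2 difference of Man2a2 was 0.57 (edgeR adjusted p = 0.00257). In that fit 61 of all genes tested (0.275%) had an adjusted p below 0.05, against 5 with all 6 mice. Without HETStra8 mouse 2 the log2 difference of Man2a2 was 0.17. With all 6 mice, no gene of the 3 lists had an adjusted p below 0.05 in edgeR's quasi-likelihood test.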
